A study of Homo sapiens with 15 samples.

Results

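CRHBP and CGA are 2 of the 48777 genes in the deposited tables, found there by their GENCODE symbols. They were chosen by their own values, both having been strongly raised from day 9 to day 11 of a cardiac differentiation, so every contrast that holds day 9 or day 11 libraries is given for them as a description without a test. The libraries come from H1, an established human embryonic stem cell line, sampled on days 0, 4, 9, 11 and 20 with 3 replicates a day, and total RNA was sequenced in bulk. By the labels all 15 samples were on a matrix of the laminins LN521 and LN221, with undifferentiated cells on day 0. The deposited sample table instead gives LN-521 alone for day 0, so the matrix of the day 0 cells is uncertain. The methods list an earlier day in place of day 9. The labels and the study's results and figure legends give day 9, which was followed here. By the study's protocol CHIR99021, an inhibitor of the kinase GSK3, was added on day 4, at confluence. IWP2, an inhibitor of Wnt secretion, followed between then and day 9. Whether the day 4 libraries were taken before CHIR99021 is not stated. Day 11 is the stage the study calls committed cardiac progenitors. A single cell line and dish protocol stand behind every value, and CRHBP belongs to the day 11 gene signature that the study drew from these same samples. By qPCR and immunoblotting of different differentiation batches, the study lists CRHBP among the exceptions to a significant increase from day 9 to day 11. It describes the signature genes as maintained on day 20, whereas CRHBP here was lower in every day 20 replicate than on day 11.

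CRHBP encodes a secreted protein that binds corticotropin-releasing hormone (CRH) and urocortin and keeps them from their receptors. It is best known from brain, pituitary and liver. CGA encodes the alpha subunit shared by chorionic gonadotropin, luteinizing hormone, follicle-stimulating hormone and thyrotropin, each of which pairs it with a beta subunit of its own. It is best known from placental trophoblast and the anterior pituitary, where cAMP signalling through CREB raises its transcription. Neither product is part of the contractile apparatus, whereas MYH6, the alpha myosin heavy chain, is a building block of the atrial and early cardiac sarcomere.

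CRHBP (ENSG00000145708) lies on chromosome 5 from 76953045 to 76981158 on the plus strand, and CGA (ENSG00000135346) on chromosome 6 from 87085498 to 87095106 on the minus strand, both in GRCh38 coordinates of GENCODE 44. Both are protein-coding, with 5 annotated transcripts for CRHBP and 6 for CGA, and no other annotated gene overlaps either one. Their promoters are shown because both genes peaked on day 11 although they sit on different chromosomes. Each sequence below is the RefSeq promoter of build GRCh38.p14, from 250 bases before the start site to 50 bases after it, read 5′ to 3′ along the gene. Capitals mark copies of the cAMP response element (CRE) TGACGTCA and of the TATA box TATAAA.
CRHBP, chr5:76952795-76953094, plus strand: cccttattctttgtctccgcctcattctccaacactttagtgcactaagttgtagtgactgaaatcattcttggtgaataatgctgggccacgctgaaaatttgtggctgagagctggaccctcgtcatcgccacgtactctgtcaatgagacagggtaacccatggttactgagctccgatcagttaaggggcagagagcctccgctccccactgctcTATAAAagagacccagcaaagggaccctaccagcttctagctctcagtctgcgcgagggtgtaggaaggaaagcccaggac
CGA, chr6:87095057-87095356, minus strand: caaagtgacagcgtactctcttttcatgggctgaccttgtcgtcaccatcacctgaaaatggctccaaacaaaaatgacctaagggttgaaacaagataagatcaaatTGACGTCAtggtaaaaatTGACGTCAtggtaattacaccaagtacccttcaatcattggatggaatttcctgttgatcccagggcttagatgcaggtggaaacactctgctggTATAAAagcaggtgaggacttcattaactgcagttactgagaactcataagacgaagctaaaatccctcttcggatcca

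Both promoters held 1 TATA box, at -31 in CRHBP and -29 in CGA counted from the start site, and 11.5% of the 35114 RefSeq promoters of the same length held one on either strand. The CGA promoter held 2 copies of the CRE, at -142 and -124, and the CRHBP promoter held none. At least 1 CRE was present in 1.85% of all promoters, and 21 of them (0.0598%) held 2 or more. The shorter core TGACG, which each full CRE contains on both strands, was found 5 times for CGA and once for CRHBP, against 24.6% of promoters with a match. Of sites that cardiac and trophoblast factors can bind, the GATA site AGATAA (10.3% of promoters) matched once in CGA and the NKX2-5 site TNAAGTG (10.2%) once in CRHBP. The CCAAT box CCAAT (34.6%) matched once and the E-box CANNTG (68.7%) 3 times in CGA, and neither matched in CRHBP. The other searched motifs, TGATAA (7.53%), the AP-1 site TGACTCA (4.95%) and the T-box site TCACACC (3.45%), matched in neither window. These matches describe the letters only, and no binding was measured here.

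**Figure D1:**
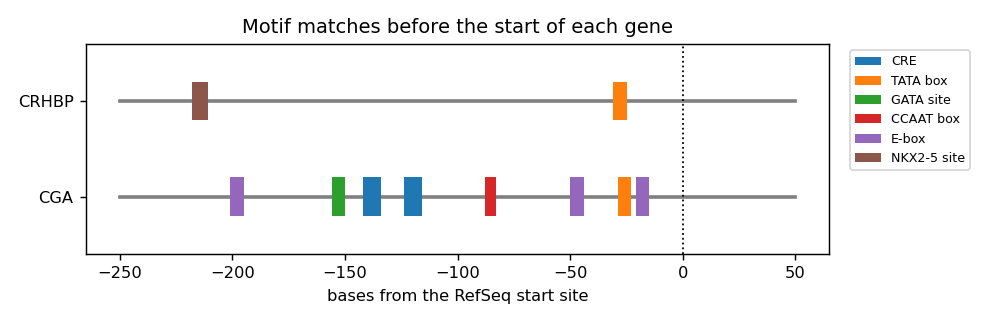
Positions of 6 kinds of motif match (coloured blocks) in the promoters of CRHBP and CGA, along an axis of bases from the RefSeq start site (dotted line). Both genes have a TATA box close to the start, and CGA alone has the pair of CRE copies.

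Library totals lay between 11990302 and 33469703 counts. On day 20, replicate 2 stood apart. It had an RNA integrity number of 6.1, against 8.8 or more in the other libraries, and counts in 48230 genes, against at most 39551 elsewhere. In that library 174 long protein-coding genes that were almost silent up to day 11 had a median of 11 reads per kilobase, which would give 30.7 reads over CRHBP and 25 over CGA. Day 0 replicate 3 and day 9 replicate 1 had 20% and 17% of all TPM (a level corrected for gene length and library size) in a single gene of 57 bases, so TPM of the other genes is lowered there. As these are bulk libraries, fewer cells of a type and less RNA per cell cannot be told apart in any value given here.

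CRHBP was near the detection limit in stem cells. On day 0 its replicates had 0.154, 0.300 and 0.460 TPM, from 3, 7 and 5 reads, and on day 4 they had 0.302, 0.419 and 0.463 TPM, from 7, 7 and 8 reads. The ranges of both days overlap. On day 9 the 3 replicates had 2.46, 1.44 and 3.52 TPM, all above day 4. On day 11 they reached 192, 510 and 69.5 TPM, with a mean of 257 ± 228 TPM (SD, n = 3). On day 20 the level was back at 6.20, 10.8 and 8.01 TPM, with a mean of 8.35 ± 2.33 TPM (SD, n = 3). The order of days by mean level was therefore 11, 20, 9, 4 and 0, and only the neighbours day 4 and day 0 overlapped in their replicates.

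CGA started from nothing measurable. None of the 72657287 counts of the day 0 libraries fell on it, which allows up to 3 counts over the day, and day 4 had 1 read, in replicate 2. On day 9 the replicates had 0.0886, 1.28 and 0.0592 TPM, which are 1, 16 and 1 reads. Replicate 2 thus held nearly all of the day 9 signal for CGA, whereas it was the lowest of its day for CRHBP. On day 11 the replicates had 33.1, 147 and 47.5 TPM, from 443, 1747 and 679 reads, with a mean of 76.0 ± 62.2 TPM (SD, n = 3). On day 20 they had 6.20, 3.24 and 3.15 TPM, with a mean of 4.20 ± 1.74 TPM (SD, n = 3), and the 29 reads of replicate 2 are close to the 25 that its silent genes would give. In the order of days 11, 20, 9, 4 and 0, day 4 overlapped both day 9 and day 0.

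**Figure D2:**
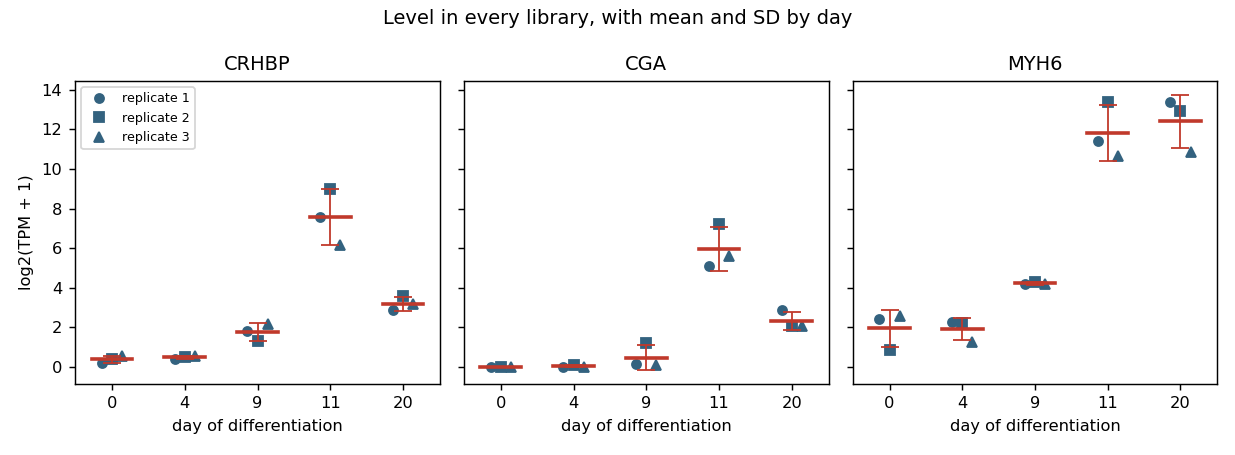
Level as log2(TPM + 1) in every library (symbols by replicate) of CRHBP, CGA and MYH6 on 5 days of differentiation, with the mean (red line) and SD (red bar) of 3 replicates. CRHBP and CGA peak on day 11 and are lower in all day 20 replicates, whereas MYH6 stays in the same range on days 11 and 20.

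Among the genes of each library, ranked by TPM, CRHBP stood at 704, 212 and 2635 in the 3 day 11 replicates and CGA at 5560, 961 and 3985. On day 20 the ranks were 13650, 16524 and 12251 for CRHBP and 13651, 39316 and 17108 for CGA.

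The contrasts that chose the genes, or that share its libraries, are given as log2 fold changes of counts with their standard errors. From day 9 to day 11 CRHBP changed by 6.59 (SE 0.84) and CGA by 7.32 (SE 1.01), which ranked 12 and 5 among the 20679 genes tested. CGA passed the low-count filter of that contrast through its day 11 libraries. Without day 9 replicate 2, which carried 16 of the day's 18 CGA reads, the CGA value was 9.77. From day 11 to day 20 CRHBP changed by -5.09 (SE 0.71) and CGA by -4.25 (SE 0.67), which were ranks 2 and 4 among the falls of 21398 genes. The day 20 means were 3.25% of the day 11 mean for CRHBP and 5.52% for CGA. Without day 11 replicate 2, the highest for both, they were 6.39% and 10.4%. From day 4 to day 9 the CRHBP value was 2.70 (SE 0.45), and CGA was removed there by the low-count filter.

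Days 0, 4 and 20 were not used in choosing the genes, and they asked whether the fall after day 11 returned either gene to its starting level. The fitted log2 difference of CRHBP on day 20 was 4.15 (SE 0.44) from day 4 and 4.49 (SE 0.63) from day 0, and all 3 day 20 replicates were above all replicates of both days. For CGA the fitted difference from day 4 was 6.92 (SE 0.99), with all 3 day 20 replicates again above. The 29 reads of day 20 replicate 2 are close to the 25 that its silent genes would give. CGA signal clearly above that background is thus seen in replicates 1 and 3 only. Both genes passed the low-count filter of these contrasts only through their day 20 libraries, so no p is given from the filtered fits. With no filter on low counts, CRHBP was higher on day 20 than on day 4 by 3.86 (adjusted p = 0.000379, edgeR) and than on day 0 by 4.23 (adjusted p = 0.000189, edgeR). CGA was higher in the same unfiltered fits than on day 4 by 6.78 (adjusted p = 0.00126, edgeR) and than on day 0 (adjusted p = 0.000177, edgeR). In those fits 6.89% of genes were called higher against day 4 and 7.82% against day 0, with medians over all genes of 0.900 and 0.908. With the filter 17.6% and 16.1% were called higher. Counted in reads, 149 for CGA on day 20 against 1 on day 4 give a 193-fold ratio, with a 95% exact interval of counting error from 34.1 to 7670. Against day 0, CGA on day 20 was at least 59.2-fold higher than a floor of 3 counts over the day. The exact two-sided permutation test of single genes gave p = 0.1 for each gene in both contrasts, the smallest p that 3 against 3 replicates allow.

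Without day 20 replicate 2, the library that stood apart, the fitted difference from day 4 was 4.10 for CRHBP and 7.21 for CGA. The floor ratio of CGA against day 0 was then at least 64.2-fold. The unfiltered fits above all include that library, and none was made without it, so no p is given here. Between day 4 and day 0 neither gene reached the low-count filter. The exact permutation p was 0.6 for CRHBP and 1 for CGA, and a difference was not detectable at this depth.

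On day 11 the replicates differed by more than on day 20. The highest CRHBP replicate was 7.34-fold the lowest on day 11 and 1.74-fold on day 20, and for CGA the ratios were 4.46 and 1.97. Replicate 2 was highest for both genes on day 11, but the lowest was replicate 3 for CRHBP and replicate 1 for CGA. Per 1000 TPM of CGA there were accordingly 5800, 3463 and 1464 TPM of CRHBP in replicates 1, 2 and 3, so that both genes rose in every replicate without a fixed ratio.

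Most sarcomere genes had the same highest replicate. MYH6 had 2745, 10863 and 1598 TPM on day 11, which is 6.80-fold from lowest to highest, and 18 of 20 sarcomere genes were highest in replicate 2. NPPA, the atrial natriuretic peptide of cardiomyocytes, had 18.6, 575 and 17.3 TPM in the same libraries. Markers of other cell types were spread differently. The 10 yolk sac and liver markers summed to 2227, 1012 and 3474 TPM and the 9 mesenchymal markers to 3524, 1285 and 7505 TPM, lowest in replicate 2 in both cases. The 6 endothelial markers summed to 112, 199 and 84.3 TPM, highest in replicate 2. The part of these differences between replicates in the levels of CRHBP and CGA was not tested.

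Set against MYH6 in the same library, CRHBP was steady on day 11. It had 69.9, 47.0 and 43.5 TPM per 1000 TPM of MYH6, a narrower spread than that of either gene alone. On day 9 the values were 145, 76.7 and 203, and on day 20 they were 0.575, 1.37 and 4.27, below every earlier replicate. CGA had 12.0, 13.6 and 29.7 TPM per 1000 TPM of MYH6 on day 11 and 0.575, 0.409 and 1.68 on day 20, again without overlap. Its day 9 values of 5.23, 68.5 and 3.42 rest on 1, 16 and 1 reads.

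**Figure D3:**
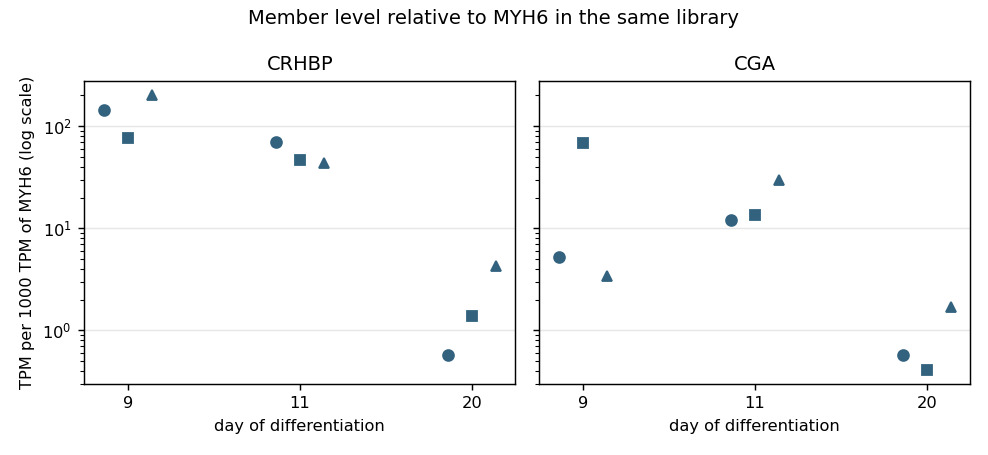
TPM of CRHBP (left) and CGA (right) per 1000 TPM of MYH6 in the same library, on a log axis, for the 3 replicates (circle, square and triangle for replicates 1, 2 and 3) of days 9, 11 and 20. All day 20 replicates of both genes lie below all day 11 replicates.

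Most sarcomere genes were higher on day 11 than on day 9, as CRHBP and CGA were, but none was called lower on day 20. Of 20 listed genes 19 were tested from day 9 to day 11, 15 were higher and none was lower, with a median log2 fold change of 3.73. Over all 20679 genes tested 1.39% were called higher and 1.00% lower, with a median of 0.00449. At an unadjusted p under 0.05, 8.96% were higher and 8.05% lower, and DESeq2 called 4.68% higher and 3.58% lower. At an unadjusted p under 0.05 no sarcomere gene was lower, and DESeq2 called 16 higher and none lower. MYH6 changed by 8.09 (SE 0.87, adjusted p = 0.0147, edgeR), MYBPC3, the myosin-binding protein C of heart, by 7.67 (SE 0.86, adjusted p = 0.0147, edgeR), and the troponin TNNT2 by 4.35 (SE 0.81, adjusted p = 0.0444, edgeR). The MYH6 and MYBPC3 calls each held in 13 of 16 alternatives. The TNNT2 call held in 7, with an adjusted p of up to 0.3 by the edgeR, DESeq2 and limma fits. Without day 9 replicate 1 no sarcomere gene was called, without day 9 replicate 3 only 2 were, and with no filter on low counts 4 were. Over all genes none was called without day 9 replicate 1. Without day 9 replicate 3, 20 of all genes were higher and 17 lower, and with no filter 553 and 463 were. Of the 15 called genes, MYOZ2 alone passed the filter only through its day 11 libraries.

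From day 11 to day 20 all 20 sarcomere genes were tested, 3 were higher and none was lower, with a median of 1.62, against 1.12% of all genes called higher and 0.435% lower with a median of 0.0657. At an unadjusted p under 0.05 the shares were 10.7% and 5.92%, and by DESeq2 6.25% and 2.68%. Neither the unadjusted p nor DESeq2 called one lower, and DESeq2 called 6 higher. The ventricular regulatory light chain MYL2 had a fitted change of 9.42 (SE 1.16), the beta myosin heavy chain MYH7 by 5.37 (SE 0.73, adjusted p = 0.0218, edgeR), and MYOZ2, a Z-disc protein, by 3.80 (SE 0.59, adjusted p = 0.0291, edgeR). MYL2 passed the filter only through its day 20 libraries, so its call is one that the filter favours, and with no filter on low counts its value was 9.28 (adjusted p = 0.00327, edgeR). The MYH6 estimate was 0.30 (SE 0.88, adjusted p = 0.906, edgeR), with 10790, 7924 and 1877 TPM on day 20. ACTC1, the cardiac alpha actin, was the sarcomere gene with the lowest estimate, -1.19 (SE 0.59, adjusted p = 0.372, edgeR). Leaving out any 1 day 11 replicate left no sarcomere call in this contrast, and at most 1 of all genes was called in those fits.

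**Figure D4:**
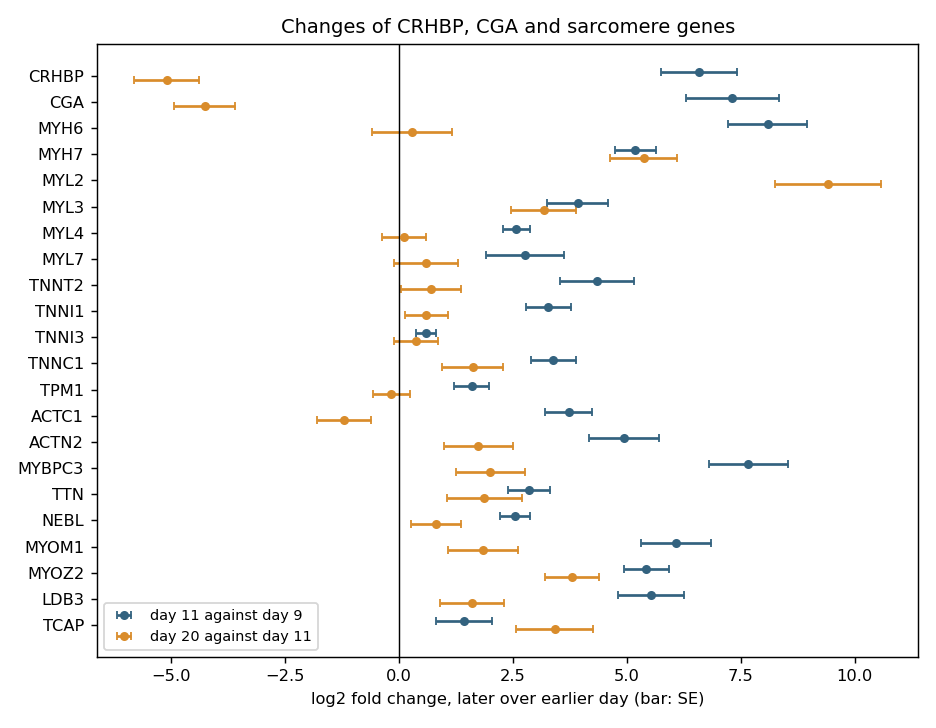
Log2 fold changes of counts with standard errors (bars) for CRHBP, CGA and 20 sarcomere genes, day 11 against day 9 in blue and day 20 against day 11 in orange. CRHBP and CGA lie at -5.09 and -4.25 in orange, while the sarcomere genes lie between -1.19 and 9.42. MYL2 has no blue point because it was below the low-count filter there.

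The partners of CRHBP were low on day 11. CRH, its main ligand, had 0.663, 1.12 and 2.59 TPM on day 11, and the ligand urocortin (UCN) had 3.65, 3.15 and 2.61 TPM. The receptors CRHR1 and CRHR2 had at most 2.93 and 2.03 TPM on that day. CRHBP exceeded both ligands in each day 11 library, least in replicate 3, where its 69.5 TPM stood beside 2.59 of CRH and 2.61 of UCN. Of the 14 genes of the CRH system, 9 were tested from day 9 to day 11, with a median of -0.16. By edgeR none was called higher and 1 lower, against 1.39% and 1.00% of all genes tested. The numbers were the same by unadjusted p and by DESeq2. The gene called lower was POMC, the precursor of corticotropin, which fell by 1.70 (SE 0.31, adjusted p = 0.0391, edgeR), from 20.0, 22.1 and 39.7 TPM to 8.20, 9.02 and 8.93 TPM. In the later contrast, day 20 against day 11, 11 were tested and edgeR called none, with 5 higher at an unadjusted p under 0.05 and 3 higher by DESeq2, and the median was 1.00. Over all genes tested 10.7% and 6.25% were higher by those 2 measures. CRH had 1.57, 19.5 and 6.26 TPM on day 20, where replicate 2 is the library with reads over silent genes, against CRHBP at 6.20, 10.8 and 8.01 TPM (CRH 2.33 from day 11, SE 0.91, adjusted p = 0.248, edgeR). UCN had 7.09, 7.38 and 6.21 TPM (1.00 from day 11, SE 0.49, adjusted p = 0.357, edgeR), so on day 20 CRHBP no longer exceeded both ligands in each library.

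CGA likewise appeared without abundant beta subunits. FSHB had no read in the day 11 libraries, and TSHB had 1.27, 1.79 and 0.297 TPM, after none on day 9. LHB had 0.978, 2.21 and 0.305 TPM on day 11. The chorionic gonadotropin genes CGB1, CGB2 and CGB5 were at 0 in all 3 libraries and CGB7 had 2.87, 3.70 and 1.65 TPM. The CGB genes and LHB are near-identical copies, so reads may have been split or lost among them. GPHA2, the alpha subunit of thyrostimulin, had 6.63, 12.1 and 4.66 TPM. Of the receptors, FSHR had 29.1, 15.7 and 41.4 TPM on day 9 and 13.7, 11.4 and 11.4 TPM on day 11 (log2 fold change -1.31, SE 0.36, adjusted p = 0.114, edgeR), whereas LHCGR and TSHR stayed below 1 TPM on both days. Of 14 listed genes only 3 were tested from day 9 to day 11 and 5 from day 11 to day 20, with medians of -0.25 and 0.56, and edgeR called none. At an unadjusted p under 0.05, 1 was lower in the first contrast and 2 were higher in the second, and DESeq2 gave the same numbers of calls. Over all genes tested edgeR called 1.39% higher and 1.00% lower in the first contrast, and 1.12% and 0.435% in the second.

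Of the factors known to act on the CGA promoter, none was called higher on day 11. Of 13 listed, 11 were tested from day 9 to day 11, none was higher by edgeR, by unadjusted p or by DESeq2, and 2 were lower, with a median of -0.19. Over all genes tested edgeR called 1.39% higher and 1.00% lower. GATA3 fell by 1.51 (SE 0.27, adjusted p = 0.0359, edgeR) and TFAP2C by 1.69 (SE 0.22, adjusted p = 0.0178, edgeR), both of which are trophoblast regulators. CREB1, which binds the CRE, had 33.1, 30.4 and 30.0 TPM on day 11 against 34.9, 35.3 and 32.5 on day 9 (-0.19, SE 0.13, adjusted p = 0.501, edgeR). Between days 11 and 20, 12 were tested and 1 was lower, GATA2, which fell by 2.08 (SE 0.35, adjusted p = 0.0352, edgeR). Over all genes tested 0.435% were called lower. The GATA2 call held in 5 of 16 alternatives, with an adjusted p of up to 0.203 by the edgeR, DESeq2 and limma fits. All 10 cAMP response genes had positive estimates from day 9 to day 11, with a median of 0.62, but edgeR called none, against 4 higher at an unadjusted p under 0.05 and 3 higher by DESeq2. Over all genes tested 8.96% and 4.68% were higher by those 2 measures. None was called between days 11 and 20 either, with a median of 0.58, and 1 was higher by unadjusted p and by DESeq2. CREM, a CRE-binding factor that cAMP induces, had the lowest adjusted p of them, with an estimate of 0.90 (SE 0.20, adjusted p = 0.0668, edgeR).

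Among 24 other peptide hormones and granule proteins, 18 were tested from day 9 to day 11, with a median of 0.13. By edgeR 1 was called higher and 2 lower, against 1.39% and 1.00% of all genes tested. At an unadjusted p under 0.05 (edgeR), 6 were higher and 3 lower, against 8.96% and 8.05% of all genes. DESeq2 called 3 higher and 2 lower, against 4.68% and 3.58%. Follistatin (FST), which binds activin, was higher by 2.31 (SE 0.28, adjusted p = 0.0147, edgeR). The neuropeptide galanin (GAL) fell by 2.25 (SE 0.39, adjusted p = 0.0339, edgeR) and adrenomedullin (ADM) by 1.18 (SE 0.19, adjusted p = 0.0277, edgeR). On day 20 against day 11, 20 were tested, and edgeR called 3 higher and 2 lower, against 1.12% and 0.435% of all genes. At an unadjusted p under 0.05 (edgeR), 5 were higher and 4 lower, against 10.7% and 5.92% of all genes. DESeq2 also called 5 higher and 4 lower, against 6.25% and 2.68%. Neuropeptide Y (NPY), 1 of the 2 that edgeR called lower, also had its highest mean level on day 11. Its day 11 replicates had 185, 1525 and 329 TPM, after 37.1, 44.3 and 56.0 TPM on day 9 (3.82, SE 0.78, adjusted p = 0.0563, edgeR), and on day 20 they had 9.62, 18.0 and 29.5 TPM, when it fell by 5.26 (SE 0.91, adjusted p = 0.0385, edgeR). The other that edgeR called lower was APELA, a ligand of the apelin receptor, which fell by 3.21 (SE 0.39, adjusted p = 0.0173, edgeR). The granule protein SCG2 and the inhibin subunits INHA and INHBA were higher on day 20. SCG2 passed the filter only through its day 20 libraries, and with no filter its value was 5.73 (adjusted p = 0.00327, edgeR). Without day 9 replicate 1 or replicate 3 no gene of these hormone and regulator lists was called from day 9 to day 11, and without any 1 day 11 replicate none was from day 11 to day 20. Over all genes none was called without day 9 replicate 1, and 20 were higher and 17 lower without day 9 replicate 3. From day 11 to day 20 at most 1 of all genes was called without any 1 day 11 replicate. Without day 11 replicate 1 or replicate 3, 2 of the 6 calls from day 9 to day 11 were left, and without day 20 replicate 1, 3 of the 6 later ones.

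Markers of trophoblast and pituitary were mostly low or at 0 on day 11, whereas those of yolk sac and liver were abundant. Of 15 trophoblast and amnion markers, PSG1 and PSG3 had no read in the 3 libraries and 8 had a mean under 1 TPM, and the list summed to 45.1, 25.0 and 99.5 TPM. That sum was lowest in replicate 2, where CGA was highest, and the gene with the highest level was GABRP, known from amnion, with 25.9, 12.5 and 64.9 TPM. Of 8 pituitary markers 5 had a mean under 1 TPM and prolactin (PRL) had no read. From day 9 to day 11 edgeR and DESeq2 called no gene of either list, with 7 and 3 tested, and at an unadjusted p under 0.05 only 1 pituitary marker was lower. Over all genes tested edgeR called 1.39% higher and 1.00% lower in that contrast. From day 11 to day 20 the placental aromatase CYP19A1 was called higher, with 0.384, 0.571 and 0.341 TPM before and 1.87, 4.17 and 4.13 TPM after (2.82, SE 0.51, adjusted p = 0.0417, edgeR). That call held in 5 of 16 alternatives, with an adjusted p of up to 0.255 by the edgeR, DESeq2 and limma fits. No marker of any list was called from day 11 to day 20 without any 1 day 11 replicate or without day 20 replicate 1. Over all genes at most 1 was called in the former fits, and 76 were higher and 18 lower in the latter. The 8 neuron markers summed to between 15.9 and 23.9 TPM on day 11, below the 41.9 to 96.7 TPM of day 9, and GAD1, an enzyme of GABA synthesis, fell by 3.40 (SE 0.46, adjusted p = 0.0203, edgeR). Of the yolk sac and liver markers, AFP and SERPINA1 were higher on day 11 than on day 9, by 6.73 (SE 1.05, adjusted p = 0.0276, edgeR) and 5.79 (SE 0.76, adjusted p = 0.0200, edgeR). AFP had 231, 35.8 and 581 TPM on day 11, lowest in the replicate with the most CRHBP and CGA. No mesenchymal, epithelial or endothelial marker was called by edgeR from day 9 to day 11, with 2, 0 and 4 higher and 1, 0 and 0 lower at an unadjusted p under 0.05, and 1, 0 and 3 higher and 1, 0 and 0 lower by DESeq2. Without day 9 replicate 1, day 9 replicate 3 or day 11 replicate 1 no marker of any of these lists was called in that contrast. Over all genes those fits called 0, 20 and 105 higher and 0, 17 and 28 lower. The part of these cells in the levels of CRHBP and CGA was not tested.

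Over the 15 libraries the gene most like CRHBP was CGA and the reverse, with Pearson's r = 0.965 of log2(TPM + 1) among 11617 protein-coding genes. The libraries of a day share that day, so this describes a shared day 11 peak and is no test. After CGA, the genes most like CRHBP were KCNV1 (0.942), a potassium channel subunit, DGKB (0.941), a diacylglycerol kinase, and the growth factors FGF8 (0.940) and WNT2 (0.936). FGF8 averaged 97.2 TPM on day 11 and 8.47 on day 20. After CRHBP, the genes most like CGA were WNT2 (0.962), CCDC80 (0.953), OIT3 (0.949) and PLPPR1 (0.945). WNT2 averaged 0.496 TPM on day 9, 43.3 on day 11 and 7.94 on day 20. MYH6 followed at 0.820 for CRHBP and 0.828 for CGA, ranks 92 and 66, and the median over 20 sarcomere genes was 0.714 and 0.728. The order of these genes depended on the measure: by Spearman's rho CGA ranked 18 for CRHBP and CRHBP ranked 26 for CGA.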

How the data were processed

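Bulk RNA-seq libraries of H1 cells from 5 days, 3 per day, were grouped by the day in their labels. The authors aligned reads to GRCh38 with STAR 2.5.2b, removed ribosomal and mitochondrial genes, and deposited raw counts per gene from featureCounts 1.5.1. The authors also deposited TPM computed from those counts, without naming the gene lengths used. A further deposited table lists library quality, from which the RNA integrity score was used and the uniquely mapped fraction was not. Members and gene lists were chosen with earlier results of these data known. Named genes are both members, genes of 13 written lists (157 genes, called genes first by size), and the 5 most alike protein-coding genes with a mean of at least 10 TPM on a day.

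Counts of the 6 libraries of 2 days went into edgeR 4.0.16 under R 4.3.3. Genes passed filterByExpr (at least 10 counts, 15 in total), scaling was by TMM, and the robust quasi-likelihood test was two-sided (Benjamini-Hochberg over all genes tested, threshold 0.05), after testing on simulated data. Alternatives used DESeq2 1.42.0, limma 3.58.1 on log2(TPM + 1) or log2(TPM + 0.1), other scalings, filters and sample sets, and plate or sequencing lane as a block. Exact tests and intervals used scipy 1.17.1. The labels call the replicates biological. Library totals of 11990302 to 33469703 counts set the precision of low values, and intervals and floors cover counting error only. For the plate block, labels 6_1 and 2_3 were counted as plates 6 and 2, which the labels do not state. By that reading, plates shared by days 9 and 11 gave correlations of deviations of 0.102 and 0.301. Those shared by days 11 and 20 gave values between -0.144 and 0.347.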

Additional observations from a re-analysis of the deposited data

How the results depend on the processing

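For day 20 against days 4 and 0, CRHBP and CGA kept their direction in each alternative fit, with CRHBP between 2.72 and 4.82 and CGA between 2.29 and 8.96. In filtered fits both genes enter only through libraries in which they are high, so no p is given from those fits. The fits with no filter, given in the report, are free of that limit but include day 20 replicate 2. The lowest values come from limma on log2(TPM + 1), where the pseudocount is large beside the early levels. The descriptive CGA change from day 9 to day 11 was 5.50 by that measure, and between 6.43 and 9.77 when 1 replicate was left out.

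The list genes depended more on the settings. From day 9 to day 11, 24 of 117 tested list genes were called, against 40 with DESeq2, 14 with no filter on low counts and 43 with the plate as replicate block, and between 0 and 26 when 1 replicate was left out. From day 11 to day 20, 10 of 128 were called, against 29 with DESeq2, 32 with all 15 libraries in one fit, 0 with the plate as replicate block and 6 with the sequencing lane as a block (an alternative added after seeing the data), and between 0 and 11 when 1 replicate was left out. Calls over all genes moved as well. From day 9 to day 11, 288 genes were higher and 207 lower, against 948 and 726 with DESeq2 and 1171 and 800 with the plate block. Without day 9 replicate 1 no gene at all was called. From day 11 to day 20, 239 were higher and 93 lower, against 2 and 1 with the plate block. At most 1 gene was called when any 1 day 11 replicate was left out. The cause of these changes was not tested. The plate block leaves fewer degrees of freedom in both contrasts. List calls rose with it in the first and were lost in the second. Not every pair of libraries counted as one plate deviated together. No paired analysis was possible for days 0, 4 and 20 because they share fewer than 2 plates.

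Over all genes, the median log2 change from day 11 to day 20 moved from 0.0657 to 0.177 with upper-quartile normalization, and that from day 4 to day 20 from 0.114 to 0.270 with library size scaling, without turning the sign of CRHBP or CGA. Of the 5 genes most like CRHBP, 2, 0 and 2 remained with log2(TPM + 0.1), Spearman's rho and log2 CPM, and of those most like CGA 3, 1 and 3. Depth limits days 0 and 4, where CRHBP had 15 and 22 reads in all and CGA 0 and 1, and a day 4 against day 0 change of CGA has no main value.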
